A study of Homo sapiens with 6 samples.

Results

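Control ARPE-19 cells, the unmodified arm of the study, were described from 3 of the 6 deposited RNA-seq libraries, named NC_1, NC_2 and NC_3. ARPE-19 is an established human cell line derived from the retinal pigment epithelium (RPE). The members were chosen by label alone: genotype WT, with no agent, dose or time given. The other 3 libraries, from cells overexpressing CD51-ICD, were not used, so every value is a level in control cells and none is a response. The labels name 1 cell line and do not say whether the 3 libraries came from separate cultures, so the spread between them covers these libraries and may be technical. The 3 libraries held 16934668, 13616694 and 14728515 gene counts, of which 98.4% fell on protein-coding genes in each.

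The RPE is the pigmented cell layer behind the photoreceptors. It turns spent vitamin A back into the chromophore of the visual pigments, engulfs shed photoreceptor tips, carries ions, water, glucose and lactate between retina and blood, makes melanin and secretes factors towards the retina and the underlying choroid. RPE cells in culture can lose part of this programme and take on features of migrating, matrix-producing cells. The levels below are listed by these functions, then by the proteins the cells carry on their surface and those they release.

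Levels are given as FPKM, fragments scaled to gene length and to library size, so that genes of different length can be set side by side. A gene was counted as expressed when it had at least 1 FPKM in every one of the 3 libraries, and as a trace when it had counts but missed that rule. By this rule 8889 of 19951 protein-coding genes were expressed (44.6%), 6158 were traces and 4904 had no count in any library. The percentage of each gene list that was expressed is to be read beside that 44.6%. Of the expressed genes, 5385 lay below a mean of 10 FPKM, 3134 between 10 and 100, 344 between 100 and 1000 and 26 above. Their median was 6.89 FPKM. Values with ± are the mean and SD over the 3 libraries (n = 3), and where 3 values are listed they are in the order NC_1, NC_2, NC_3.

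One property of the count table bears on every low value. Among 525 protein-coding genes with more than 90% of their exon bases inside exons of other genes, none reached the rule for expression and 408 (77.7%) had no count. Among 608 genes with 50 to 90% of exon bases shared, 110 were expressed (18.1%), against 4268 of 7721 (55.3%) with up to 50% shared and 4511 of 11097 (40.7%) with none shared. The share is therefore given beside some low values where it is large, but not for every list member. It counts exons of other genes on either strand. Among the RPE genes of the visual cycle, pigment, phagocytosis, transport and secreted lists named below as traces or as having no count, the largest share is 33.4%, that of KCNJ13. A small share does not show that a low value is free of counting loss. The ribosomal protein gene RPL36A, with 8.40% shared, had 0.328 FPKM, against a median of 219 FPKM for ribosomal protein genes. What lowered single values was not tested.

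Sequence around the gene start was read for the most abundant genes and for the pigment and visual cycle genes, from RefSeq on GRCh38.p14. The table held 14896 of the protein-coding symbols. Many genes of the translation machinery start with a C followed by a run of pyrimidines, the terminal oligopyrimidine motif, through which growth signals set their translation. A start at C followed by at least 4 pyrimidines was present in 42 of the 62 ribosomal protein genes in the table (67.7%), against 4.67% of all 14896 starts. Among the 12 most abundant nuclear genes outside the ribosomal proteins, 7 were in the table and 2 of them had it, EEF2 and EEF1A1. Their starts are shown because these transcripts lead the cells' RNA, with 20 bases on each side of the start and the pyrimidine run in capitals, beside ACTG1, the most abundant nuclear gene, which has none.
EEF2 (chr19:3985444-3985483, minus strand): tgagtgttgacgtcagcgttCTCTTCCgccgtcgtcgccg
EEF1A1 (chr6:73521013-73521052, minus strand): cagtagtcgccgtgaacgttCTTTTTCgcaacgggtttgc
RPL13A (chr19:49487588-49487627, plus strand): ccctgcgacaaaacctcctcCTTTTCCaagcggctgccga
RPS12 (chr6:132814549-132814588, plus strand): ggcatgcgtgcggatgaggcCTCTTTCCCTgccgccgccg
RPLP0 (chr12:120201092-120201131, minus strand): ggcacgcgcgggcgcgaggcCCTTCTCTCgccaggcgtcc
ACTG1 (chr17:81512780-81512819, minus strand): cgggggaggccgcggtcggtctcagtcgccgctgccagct

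MITF, the regulator of melanin genes, binds E-boxes of the form CATGTG, its reverse complement CACATG, or the palindrome CACGTG. OTX2 binds sites that hold TAATCC, read on the other strand as GGATTA. Within 250 bases before and 50 after the start, 1 of the 3 E-box forms was found in 12 of the 20 pigment and melanosome genes in the table (60%), against 16.5% of all 14896 windows. Genes below the rule for expression held it as well: 6 of 7 trace genes and 2 of 3 genes with no count, against 4 of 10 expressed genes. The OTX form was found in 3 of the 20 (15.0%), against 5.28% of all windows. Of the 11 visual cycle genes in the table, 4 held an E-box and 3 the OTX form. The E-box search read both strands, and CACGTG does not overlap the other forms. A match is a description of letters, not a site shown to be bound. The windows of 4 genes are shown from 250 bases before to 20 after the start, with the matches in capitals: TYR and TYRP1, pigment enzymes near 0 in these cells, GPR143, a melanosome receptor that was expressed, and RLBP1, a visual cycle gene at the threshold.
TYR (chr11:89177625-89177894, plus strand): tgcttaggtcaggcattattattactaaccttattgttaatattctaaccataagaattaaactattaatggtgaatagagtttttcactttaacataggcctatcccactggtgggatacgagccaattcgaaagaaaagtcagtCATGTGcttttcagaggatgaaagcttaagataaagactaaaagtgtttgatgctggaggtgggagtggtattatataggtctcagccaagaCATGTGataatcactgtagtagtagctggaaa
TYRP1 (chr9:12693135-12693404, plus strand): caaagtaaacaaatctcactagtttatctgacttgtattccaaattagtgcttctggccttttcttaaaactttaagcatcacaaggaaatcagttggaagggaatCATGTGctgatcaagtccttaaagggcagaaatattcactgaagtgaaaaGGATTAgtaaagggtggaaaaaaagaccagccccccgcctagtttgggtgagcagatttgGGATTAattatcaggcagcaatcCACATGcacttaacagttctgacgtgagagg
GPR143 (chrX:9765828-9766097, minus strand): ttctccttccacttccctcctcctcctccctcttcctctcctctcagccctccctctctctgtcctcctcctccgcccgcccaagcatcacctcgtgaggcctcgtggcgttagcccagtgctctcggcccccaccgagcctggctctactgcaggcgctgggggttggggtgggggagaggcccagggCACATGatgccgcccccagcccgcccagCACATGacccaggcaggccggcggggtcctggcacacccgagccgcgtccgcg
RLBP1 (chr15:89221560-89221829, minus strand): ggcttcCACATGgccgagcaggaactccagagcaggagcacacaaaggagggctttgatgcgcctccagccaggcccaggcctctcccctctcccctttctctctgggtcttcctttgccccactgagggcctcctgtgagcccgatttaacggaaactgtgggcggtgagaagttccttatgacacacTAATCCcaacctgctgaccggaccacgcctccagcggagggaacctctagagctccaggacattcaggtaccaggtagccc

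The most abundant nuclear transcripts coded for the cytoskeleton, iron storage and translation. ACTG1, cytoplasmic gamma-actin (ENSG00000184009, chr17:81509971-81523847 on hg38, minus strand), had 4456, 4437 and 4482 FPKM. FTL, the light chain of ferritin, followed with 3924, 3812 and 3795 FPKM. TMSB10, a thymosin that binds actin monomers, had 3168, 3032 and 3186 FPKM. The 3 libraries lay close together for all of these, ACTG1 the closest with an SD of 22.6 FPKM. EEF2 and EEF1A1, the elongation factors of translation, stood at 2509.6 ± 118 FPKM and 1763 ± 114 FPKM. Beta-actin ACTB stood at 2366 ± 31.8 FPKM and the glycolytic enzyme GAPDH at 1838 ± 53.1 FPKM.

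KRT7, a keratin of simple epithelia (ENSG00000135480, chr12:52232520-52252186 on hg38, plus strand), ranked among these genes with 1839.7, 1787 and 1703 FPKM. The lectin LGALS1, the saposin precursor PSAP, enolase ENO1 and the ferritin heavy chain FTH1 completed the 12 highest, at 1158, 1144, 1029.9 and 963 FPKM. FTH1 shares 62.4% of its exon bases with other genes, and 0% with genes on the same strand. The 8 highest genes outside the lists were again mostly structural: FLNA at 877 FPKM and ACTN4 at 551 FPKM, which crosslink actin, MYH9, non-muscle myosin, at 857 FPKM, TAGLN2 at 632 FPKM, the tubulin TUBB at 556 FPKM, the ezrin-binding scaffold SLC9A3R1 at 702 FPKM and the chromatin protein HMGA1 at 624 FPKM. The remaining one was NPPB, which codes for B-type natriuretic peptide, a hormone best known from the heart, with 563, 606 and 502 FPKM.

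**Figure D1:**
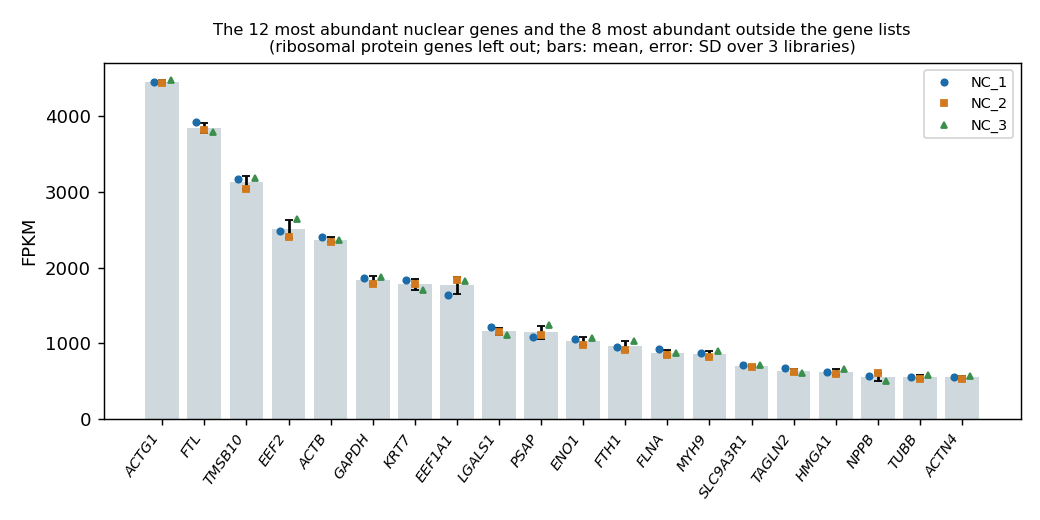
FPKM of the 12 most abundant nuclear genes and the 8 most abundant genes outside the gene lists, ribosomal protein genes left out. Bars are means, error bars the SD and symbols the 3 libraries. The levels run from 4458 FPKM for ACTG1 to 551 FPKM for ACTN4, and the libraries of a gene lie close together beside the differences between genes.

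Ribosomal protein genes took 7.09, 7.19 and 6.73% of the counts. Of 77 such genes 75 were expressed, with a median of 219 FPKM and a top of 1495 FPKM for RPS2. Many of them have processed pseudogenes of near-identical sequence, so single values are uncertain. RPL36A and RPS10 missed the rule at 0.328 and 0.417 FPKM, with 8.40% and 39.4% of their exon bases shared with other genes. The 13 mitochondrially encoded protein genes were led by MT-CO1, a subunit of cytochrome c oxidase, with 7572, 8035 and 10819.6 FPKM, above every nuclear gene. All mitochondrially encoded genes together took 3.86, 3.98 and 5.07% of the counts, the highest share in NC_3.

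Most visual cycle genes were at or near 0, while several retinol and retinal dehydrogenases and reductases were expressed. Of 17 visual cycle genes 5 were expressed (29.4%), 6 were traces and 6 had no count. RPE65, the isomerase of the cycle (ENSG00000116745, chr1:68428822-68449959 on hg38, minus strand), had no count in any library. A total of 3 counts over the 3 libraries, the upper limit that a count of 0 allows, would equal 0.0247 FPKM for this gene. That limit, like those below, covers counting error alone. LRAT, which esterifies retinol to make its substrate, had 13, 13 and 12 counts, a mean of 0.109 ± 0.0112 FPKM. The retinal G protein-coupled receptor RGR had no count, with a limit of 0.0151 FPKM. STRA6, the retinol uptake receptor, had 4, 8 and 7 counts.

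RLBP1, which carries 11-cis retinoids, lay at the threshold with 0.75, 1.06 and 1.05 FPKM, below it in NC_1 and above it in NC_2 and NC_3. RDH5, the 11-cis retinol dehydrogenase, was expressed at 2.08 ± 0.266 FPKM, and shares 68.2% of its exon bases with other genes. The highest members were DHRS3, which reduces retinal back to retinol, with 64.98, 66.8 and 64.1 FPKM, and RDH10, which oxidises retinol, with 25.1, 26.5 and 22.9 FPKM. RDH11 stood at 5.68 FPKM.

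Of 16 genes of retinoic acid metabolism and reception 8 were expressed. ALDH1A3, which makes retinoic acid from retinal, had 45.2, 54.9 and 50.1 FPKM, while its relatives ALDH1A1 and ALDH1A2 were traces at 0.0134 and 0.0234 FPKM. The carrier CRABP2 stood at 10.8 ± 1.35 FPKM and the degrading enzyme CYP26B1 at 3.57 FPKM. Receptors RXRB, RARA, RXRA, RARG and RARB stood at 25.03, 18.7, 8.1, 6.66 and 5.98 FPKM.

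The enzymes of melanin synthesis were at or near 0, while several genes of melanosome transport and structure were expressed. Of 25 members 14 were expressed (56.0%), 8 were traces and 3 had no count. TYR, tyrosinase, which starts melanin synthesis, had 0, 0 and 2 counts. TYRP1 and DCT, the next enzymes of that pathway, had 6, 3 and 8 counts and 0, 0 and 0 counts, and MLANA, a melanosome protein, had 1, 3 and 2 counts. PMEL, which forms the fibrils on which melanin is laid down, was expressed at a low level with 1.92, 2.03 and 2.87 FPKM, the highest in NC_3.

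RAB32, a small GTPase that delivers cargo to melanosomes and related organelles, was the highest of the list with 150.2, 156 and 145 FPKM. GPR143, the ocular albinism receptor of melanosomes, had 28.2, 27.4 and 30.4 FPKM, with an SD of 1.52 FPKM. GPNMB, a transmembrane glycoprotein of lysosomes and melanosomes, had 23.98, 27.04 and 37.7 FPKM and was highest in NC_3. The trafficking subunits HPS1, HPS6 and DTNBP1 stood at 30.5, 25.9 and 6.5 FPKM and the protease BACE2, which processes PMEL, at 21.1 FPKM. In terms of the promoters shown above, the pigment gene with 2 E-box matches at 0.0149 FPKM (TYR) stood beside one with 2 matches at 28.7 FPKM (GPR143).

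Several transcription factors of the early eye field and of the RPE were expressed. Of 24 members 13 were expressed (54.2%). MITF and OTX2, which together drive RPE pigment genes, had 3.995, 3.34 and 3.68 FPKM and 7.82, 8.13 and 9.39 FPKM. PAX6, the master gene of eye formation, had 1.74, 1.9 and 1.92 FPKM. SIX3, RAX and LHX2, which specify the eye field, stood at 43.7 ± 6.13 FPKM, 9.25 ± 1.31 FPKM and 9.56 ± 0.623 FPKM, and SOX9, an activator of visual cycle genes in RPE, at 17.2 ± 2.49 FPKM. The MITF relative TFE3 was the highest of the list with 61.3 FPKM, and the nuclear receptors NR2F2 and NR2F1 stood at 36.2 and 25.2 FPKM. CRX, SOX2, SIX6, PAX2 and RAX2 had no count. Of the members that were not expressed, 1 shares more than 50% of its exon bases with other genes.

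Genes for the uptake of photoreceptor outer segments were expressed in 20 of 24 cases (83.3%), with MERTK, TULP1, CD36 and TUB the exceptions. MERTK, the kinase that triggers engulfment in RPE, had 2, 1 and 7 counts, a mean of 0.0465 ± 0.0468 FPKM. Its relative AXL (ENSG00000167601, chr19:41219203-41261766 on hg38, plus strand) had 164, 162 and 189 FPKM and the third of that family, TYRO3, had 5.93, 6.28 and 6.19 FPKM. Their bridging ligands GAS6 and PROS1 stood at 52.1 ± 6.23 FPKM and 4.79 ± 0.415 FPKM. The binding integrin of RPE pairs ITGAV with ITGB5, and these had 13.6, 11.2 and 10.8 FPKM for ITGAV and 109.7, 108 and 110.3 FPKM for ITGB5. MFGE8, which links that integrin to the outer segments, stood at 37.8 ± 1.38 FPKM. The phagosome protease CTSD and the annexin ANXA2 led the list with 295 and 248 FPKM. The scavenger receptor CD36 was a trace with 3 counts in all, and TUB had none.

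Transport genes ranged from very high to absent. Of 38 members 17 were expressed (44.7%), near the 44.6% of all protein-coding genes. BSG, the chaperone of lactate carriers, had 478, 467 and 489 FPKM. The lactate carriers themselves were SLC16A3 with 188, 187 and 192 FPKM and SLC16A1 with 11.4, 12.95 and 10.03 FPKM, while SLC16A8, the carrier of the basal RPE membrane, had 5, 1 and 0 counts. SLC2A1, the glucose carrier, had 179, 184 and 209 FPKM and the amino acid carrier SLC7A5 262, 246 and 234 FPKM. The anion exchanger SLC4A2 stood at 96.97 ± 5.35 FPKM. BEST1, an RPE chloride channel, had 7, 17 and 10 counts, the potassium channel KCNJ13 had 0, 0 and 3 counts, and the water channel AQP1 was a trace at 0.518 ± 0.0946 FPKM.

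Several secreted proteins typical of RPE were expressed, while others were traces or had no count. Of 21 members 12 were expressed (57.1%). TIMP3, a metalloproteinase inhibitor of Bruch's membrane, had 59.97, 61.9 and 72.3 FPKM. EFEMP1, a fibulin whose mutation causes a macular drusen disease, had 50.3, 52.6 and 48.8 FPKM. SERPINF1, or PEDF, an abundant anti-angiogenic product of RPE, was a trace with 0.466, 0.503 and 0.351 FPKM, and shares none of its exon bases. TTR, the thyroid hormone and retinol carrier, had no count, with a limit of 0.0269 FPKM. VEGFA had 1.92, 2.16 and 2.48 FPKM and its relatives VEGFB and VEGFC 52.8 and 3.9 FPKM. BMP4 stood at 30.5 ± 1.72 FPKM and cystatin CST3 at 72.8 ± 3.35 FPKM.

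**Figure D2:**
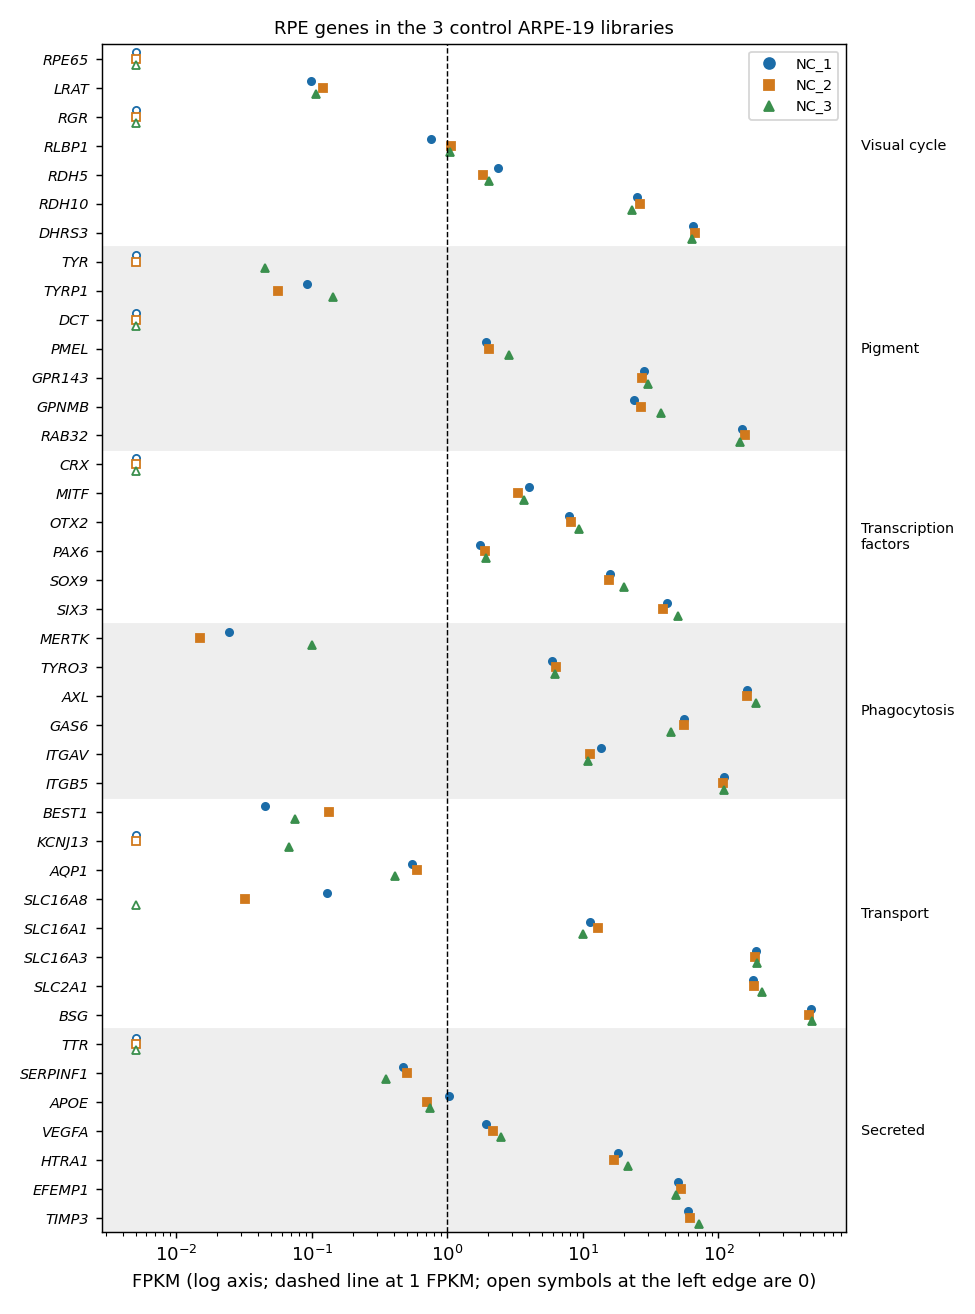
FPKM on a log axis of RPE genes by function, with 1 symbol for each of the 3 libraries. Open symbols at the left edge are 0 and the dashed line marks 1 FPKM. RPE65, RGR, DCT, CRX and TTR lie at 0 in all 3 libraries, RLBP1 and APOE straddle the line, and AXL, ITGB5, SLC16A3, SLC2A1, BSG and RAB32 lie above 100 FPKM.

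By a fixed list of 15 RPE markers, 3 were expressed (OTX2, MITF and PMEL), 8 were traces and 4 had no count. Of the markers of other cell types, 0 of 6 for melanocytes, 0 of 8 for photoreceptors, 0 of 9 for microglia and other leukocytes, 0 of 6 for endothelium and 0 of 6 for neurons were expressed. The summed level of the leukocyte markers ran from 0.654 to 0.910 FPKM over the libraries, with CSF1R the highest. Of these 9 markers, 1 shares more than 50% of its exon bases with other genes, so its low value is uncertain. In bulk RNA a few cells of a type and little RNA per cell cannot be told apart. Among the leukocyte markers PTPRC, CD3E, AIF1 and CX3CR1 were at 0. The sum of the photoreceptor markers ran from 1.33 to 1.45 FPKM. That of the neuron markers ran from 1.88 to 2.09 FPKM, and the highest neuron marker had a mean of 1.11 FPKM. The number of neuron markers at 1 FPKM or more was 1, 0 and 1 in NC_1, NC_2 and NC_3. Of 6 pericyte and smooth muscle markers 3 were expressed, PDGFRB, ACTA2 and CSPG4, and of 7 fibroblast markers 1, COL1A1. GLUL, glutamine synthetase, was the 1 of 6 Müller glia markers, at 22.4 FPKM. Of 6 stratified epithelium markers 1 was expressed, KRT10, a keratin of the upper epidermis, at 12.2 FPKM, while KRT5 and KRT1 were at 0. Of 6 simple epithelium markers 3 were expressed, KRT7, KRT8 and KRT18, and KRT19, EPCAM and CDH1 were traces at 0.585, 0.0271 and 0.0168 FPKM.

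Keratins of simple epithelia were among the highest genes, while epithelial cadherin was nearly absent. Of 44 junction and keratin genes 19 were expressed (43.2%), near the 44.6% of all protein-coding genes. KRT8 and KRT18, which pair to form filaments, had 565, 526 and 518 FPKM and 497, 459 and 467 FPKM. KRT19 was a trace at 0.585 FPKM. EZR, ezrin, which ties the membrane to actin in apical microvilli, had 567, 581 and 554 FPKM. CDH1, E-cadherin, had 3, 2 and 0 counts, while CDH2, N-cadherin, which RPE also carries, had 36.9, 36.6 and 38.5 FPKM. The polarity gene CRB2 stood at 37.7 ± 1.33 FPKM, the desmosome genes JUP and DSP at 29.3 and 12.6 FPKM, and the tight junction genes TJP1 and CLDN1 at 3.07 and 3.36 FPKM. CLDN19, the main claudin of human RPE, had no count, with a limit of 0.0179 FPKM.

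Mesenchymal and contractile genes were expressed in 17 of 30 cases (56.7%). VIM, vimentin, had 388, 394 and 461 FPKM and the calcium-binding S100A6 623, 648 and 631 FPKM. TPM2 and MYL9, of the contractile apparatus, stood at 212 ± 19.3 FPKM and 178 ± 12.7 FPKM, and ACTA2, smooth muscle actin, at 11.1 ± 1.08 FPKM. TAGLN, another smooth muscle gene, had 63.8, 52.8 and 34.7 FPKM, the lowest in NC_3. TWIST1 was expressed at 7.05 ± 0.597 FPKM, SNAI1, ZEB2 and ZEB1 were near or below the threshold at 1.01, 0.662 and 0.314 FPKM, and SNAI2 and TWIST2 had no count.

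The surface of the cells was described by families of receptors, beginning with integrins, the receptors for matrix. Of 26 subunits 11 were expressed (42.3%), near the 44.6% of all protein-coding genes. ITGA3, a laminin-binding chain, led with 233, 223 and 259 FPKM, highest in NC_3. ITGA5, the fibronectin-binding chain, had 94.97, 91 and 96.4 FPKM, and the common beta chain ITGB1 had 71.6, 68.7 and 55.8 FPKM, lowest in NC_3. ITGA7 and ITGB4 stood at 29.8 and 23.5 FPKM. ITGAV, at 11.9 FPKM, was the seventh highest subunit. ITGB3 lay at 1.06 FPKM with 51.6% of its exon bases shared, and ITGB8 was just below the threshold at 0.917 FPKM.

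Receptor tyrosine kinases were expressed in 21 of 58 cases (36.2%). AXL was the highest, followed by EPHA2, an ephrin receptor, with 95.2, 96.98 and 105 FPKM. PDGFRB, the receptor for platelet-derived growth factor B, had 29.5, 30.3 and 33.2 FPKM, while its relative PDGFRA was a trace at 0.0024 FPKM. DDR1, a collagen receptor, had 25.9, 25.2 and 28.9 FPKM. MET and EGFR, receptors for hepatocyte and epidermal growth factors, had 17.6, 15.4 and 18.1 FPKM and 14.8, 12.8 and 15.3 FPKM. ERBB2, FGFR1 and IGF1R stood at 14.1, 11.8 and 7.99 FPKM, and KIT, MUSK and NTRK2 had no count.

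Guidance and developmental receptors followed a similar order of a few high members. PLXNB2, a semaphorin receptor, had 299, 297 and 316 FPKM, the highest of all receptors of these families, and the next plexin, PLXND1, had 24.1 FPKM. Of 21 guidance receptors 12 were expressed. Of 19 Wnt, Notch and Hedgehog receptors 13 were expressed (68.4%), led by the Wnt receptor FZD2 with 46.5, 44.2 and 38.7 FPKM and by NOTCH2 with 36.3, 33.7 and 41.6 FPKM. The Wnt co-receptor LRP5 stood at 19.5 ± 0.505 FPKM and the Hedgehog transducer SMO at 12.6 ± 0.356 FPKM. Receptors for TGF-beta and BMP were all low, with 6 of 14 expressed. The highest was TGFBR2 with 4.22, 5.27 and 5.91 FPKM, and TGFBR1, with which it pairs, had 3.51, 2.82 and 2.83 FPKM.

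Immune receptors differed by family beside the 44.6% of all protein-coding genes. Of 49 cytokine receptors 14 were expressed (28.6%), none above the 11.2 FPKM of the interleukin-17 receptor chain IL17RC. The interferon-gamma receptor chains IFNGR2 and IFNGR1 stood at 8.08 and 4.61 FPKM, and IL6ST, the shared chain of the interleukin-6 family, had 3.88, 3.03 and 3.08 FPKM. Its partner OSMR stood at 5.27 FPKM and LIFR and IL6R were traces at 0.058 and 0.314 FPKM. IFNAR2 and IL10RB were traces and share 83.2% and 38.1% of their exon bases with other genes. Of protein-coding genes with 50 to 90% shared, as for IFNAR2, 18.1% were expressed, against 55.3% with up to 50% shared, as for IL10RB. Of 28 receptors of the TNF family 12 were expressed (42.9%), led by TNFRSF12A, the receptor for TWEAK, with 212, 205 and 179.7 FPKM, and TNFRSF1A, the main TNF receptor, with 65.4, 64.7 and 71.5 FPKM. Of 32 Toll-like and chemokine receptors 1 was expressed (3.13%), the atypical chemokine receptor ACKR3, with 30.4, 36.3 and 26.7 FPKM. Without NC_1 the number expressed was 2. Of the members that were not expressed, 3 share more than 50% of their exon bases with other genes. CXCR4 lay at the threshold with 0.875, 1.01 and 1.03 FPKM.

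G protein-coupled receptors were expressed in 28 of 117 cases (23.9%), below the 44.6% of all protein-coding genes. GPRC5A, an orphan receptor of epithelia, had 109, 111 and 128 FPKM. OXTR, the oxytocin receptor, had 57.1, 56.9 and 52.2 FPKM. F2R, the thrombin receptor, and ADORA1, an adenosine receptor, had 38.1, 37.8 and 43.6 FPKM and 19.7, 20.96 and 17.99 FPKM. The bradykinin receptor BDKRB1 and the ATP receptor P2RY2 stood at 15.6 and 11.5 FPKM. Of 27 lipoprotein, scavenger and endocytic receptors 14 were expressed, led by LRP1 with 100.3, 95.02 and 108 FPKM and LRP10 with 74.8, 74.9 and 79.7 FPKM. The transferrin receptor TFRC stood at 9.77 FPKM.

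**Figure D3:**
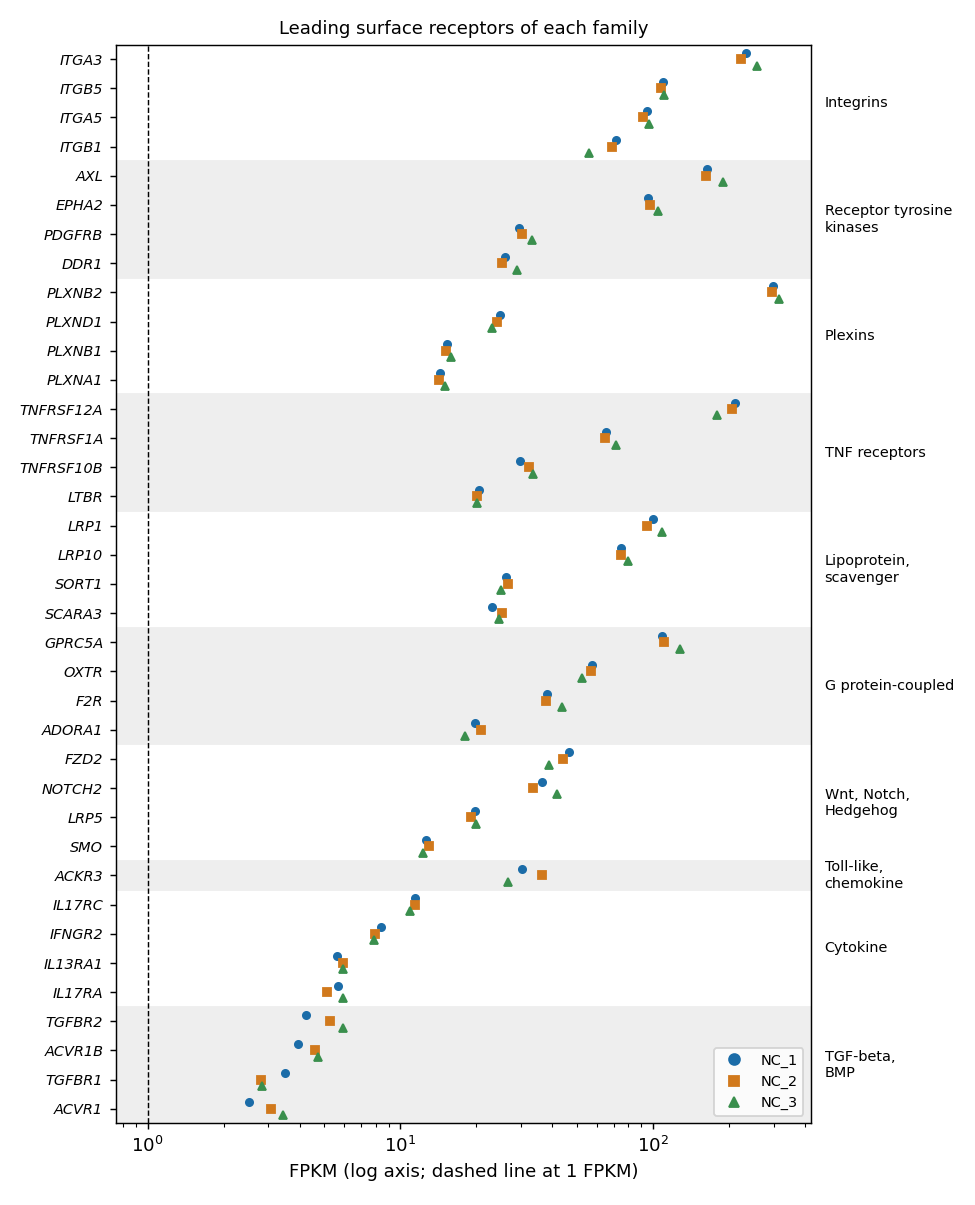
FPKM on a log axis of up to 4 leading surface receptors per family, with 1 symbol for each of the 3 libraries and a dashed line at 1 FPKM. PLXNB2 at 304 FPKM, ITGA3 at 238 and TNFRSF12A at 199 lead, and the leading members of the cytokine and TGF-beta families lie near or below 11.2 FPKM.

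Other surface glycoproteins were expressed in 37 of 51 cases (72.5%). The tetraspanins CD151 and CD63 had 296, 295 and 286 FPKM and 267, 260.3 and 284 FPKM. The class I antigen-presenting chains HLA-C and HLA-B stood at 191 and 135 FPKM. Their shared light chain B2M stood at 34.4 ± 4.89 FPKM, below both heavy chains, and shares none of its exon bases with other genes. The class I chains are close in sequence, so how reads were split between them is uncertain. HLA-DRA, of class II, was a trace at 0.0981 FPKM. The checkpoint ligand CD276 stood at 41.8 FPKM and CD44, the hyaluronan receptor, at 32.3 FPKM. NCAM1, L1CAM and VCAM1 had no count.

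Among collagens, chains of basement membranes and the short-chain collagen COL8A1 were the highest. Of 44 collagen chains 14 were expressed (31.8%). COL4A2 and COL4A1, which form the main basement membrane network, had 77.4, 73.9 and 69.5 FPKM and 48.97, 48.97 and 40.2 FPKM. COL8A1, a short-chain collagen of Bruch's membrane, had 62.6, 61.4 and 62.4 FPKM, and COL18A1, the precursor of endostatin, had 39.2, 40.7 and 38.9 FPKM. COL1A1 stood at 3.33 ± 1.02 FPKM, highest in NC_3, while its partner chain COL1A2 had no count in any library, a limit of 0.00578 FPKM. COL5A1 and COL6A2 also had no count, while COL5A2 and COL6A1, chains of the same trimers, stood at 12.4 and 2.82 FPKM. COL1A2, COL5A1 and COL6A2 share none of their exon bases with other genes. Laminin chains were expressed in 7 of 12 cases, led by LAMB2 with 128, 126 and 149.9 FPKM, LAMC1 with 37.1, 38.7 and 40.5 FPKM and LAMA5 with 18.2, 17.8 and 19.97 FPKM, which can assemble as 1 trimer.

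Of 60 matrix glycoproteins and proteoglycans 26 were expressed (43.3%), near the 44.6% of all protein-coding genes. After LGALS1 the highest were CYR61 with 446, 458 and 454 FPKM and SPARC with 367, 374 and 360.2 FPKM, both matricellular proteins, and TGFBI with 272, 272 and 276 FPKM, a matrix protein first found as a target of TGF-beta. The basement membrane proteoglycans AGRN and HSPG2 stood at 249.7 ± 9.98 FPKM and 72.9 ± 5.37 FPKM, and FN1, fibronectin, at 56.9 ± 2.32 FPKM. SPP1, osteopontin, named in the study's title, had 2, 4 and 0 counts in these cells.

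Proteases and their inhibitors were expressed in 36 of 63 cases (57.1%). The plasminogen activators PLAU and PLAT stood at 6.23 and 1.71 FPKM. TIMP2 had 187, 188 and 230.3 FPKM and MMP14, a membrane metalloproteinase it helps to control, 146, 148 and 166 FPKM. MMP2, which MMP14 activates, stood at 9.63 ± 0.267 FPKM, and MMP9 had no count. The crosslinking oxidases LOXL2, LOXL1 and LOX stood at 117, 109 and 57.1 FPKM.

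Of 102 growth factors and their binding proteins 46 were expressed (45.1%), near the 44.6% of all protein-coding genes. Among those not expressed, 4 share more than 50% of their exon bases with other genes. The highest were IGFBP7, a member of the insulin-like growth factor binding protein family, with 448, 516 and 475 FPKM, and the activin-binding FSTL3 with 274, 262 and 230.5 FPKM. GRN, progranulin, followed with 194, 193 and 214 FPKM, and the Dickkopf protein DKK3 had 139, 149.6 and 163 FPKM. TGFB1 and TGFB2 stood at 38.9 ± 0.729 FPKM and 35.9 ± 2.19 FPKM, and FGF2 at 24.8 ± 5.62 FPKM. Cytokines and chemokines were expressed in 12 of 57 cases (21.1%), led by IL18 with 61.95, 63.8 and 67.7 FPKM and LIF with 46.3, 51.2 and 49.3 FPKM. CSF1, the growth factor of macrophages, had 12.9, 13.1 and 19.4 FPKM, and the monocyte attractant CCL2 9.98, 11.9 and 16.8 FPKM. Both were highest in NC_3. IL6 and IL1B were traces at 0.461 and 0.289 FPKM and TNF had no count. MIF was a trace at 0.644 FPKM with 61.9% of its exon bases shared.

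Complement genes were expressed in 10 of 33 cases (30.3%). C3, the hub of the cascade, had 31.2, 31.2 and 41.3 FPKM, highest in NC_3, and the proteases C1S and C1R stood at 7.52 and 6.7 FPKM. The membrane regulators CD59, CD55 and CD46 stood at 18.5, 9.75 and 5.46 FPKM and the fluid regulator CLU at 20.2 FPKM. CFI and CFB were traces at 0.0338 and 0.166 FPKM. Of 30 genes at macular degeneration risk loci 15 were expressed, among them HTRA1 with 18.1, 17.1 and 21.5 FPKM and IER3 with 61.4, 60.3 and 68.9 FPKM. APOE was a trace with 1.02, 0.705 and 0.738 FPKM and ARMS2 had no count.

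Cell division genes were nearly all present. Of 41 cell division genes 38 were expressed (92.7%). CDKN1A, the inhibitor of cyclin-dependent kinases, was the highest of them with 245, 236 and 232 FPKM. The mitotic activator CDC20 had 129, 113 and 113 FPKM, cyclin CCND1 104, 101 and 109 FPKM and the replication helicase subunit MCM7 90.7, 84.3 and 84.3 FPKM. CDKN2A stood at 5.84 FPKM. TERT, the catalytic subunit of telomerase, had 3, 2 and 5 counts. Of 24 glycolysis genes 17 were expressed, with PKM at 619 ± 37.4 FPKM and TPI1 at 500.3 ± 11.3 FPKM. LDHA stood at 199 FPKM and LDHB at 6.52 FPKM. ALDOA was listed at 6.18 FPKM, with 53.5% of its exon bases shared. Of 36 antioxidant genes 35 were expressed, the metal-binding MT2A at 633 ± 55.8 FPKM and glutathione peroxidase GPX1 at 481 ± 14.3 FPKM. Of 39 HOX genes, which mark position along the body axis, 38 had no count and HOXB4 was a trace at 0.0102 FPKM. Of the 39, 5 share more than 50% of their exon bases.

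**Figure D4:**
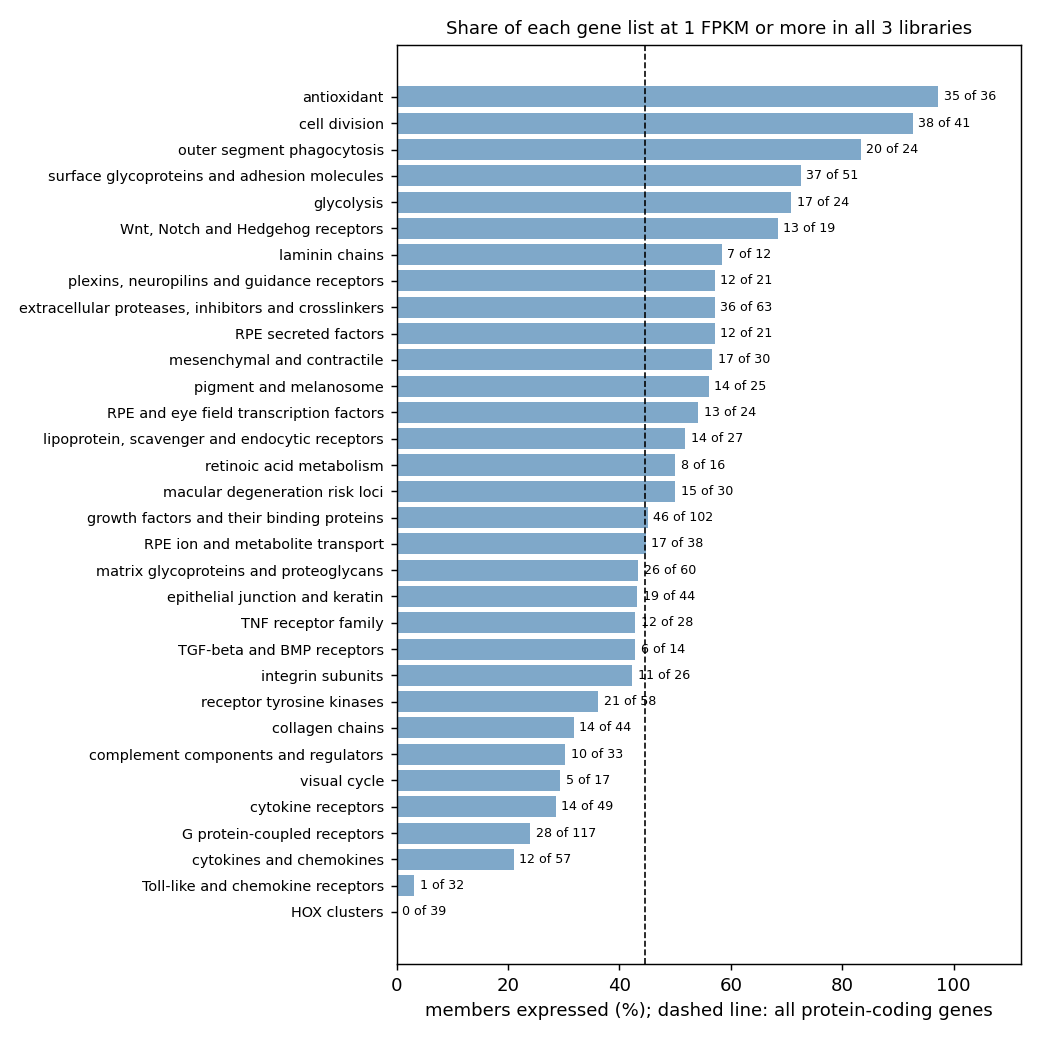
Share of each gene list that was expressed, in percent, with the number of members beside each bar and a dashed line at the 44.6% of all protein-coding genes. Antioxidant, cell division and phagocytosis genes lie far above the line, while visual cycle genes, cytokines, Toll-like and chemokine receptors and HOX genes lie below it.

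Pearson's r of log2(FPKM + 1) between libraries, over all protein-coding genes, lay between 0.997 and 0.998. This is a correlation across genes, which are not independent replicates. It includes the 4904 genes with no count and spans a wide range of levels, so it says little about the spread of single genes. The biological coefficient of variation, the spread beyond counting error estimated by edgeR over 12909 genes, was 8.64%. A chi-square test of each gene's counts over the 3 libraries, against equal shares of each library's total, found 4365 of 12413 genes with a mean count of at least 20 to differ beyond counting error (35.2%, Benjamini-Hochberg adjusted p under 0.05). Without NC_3 the number was 1757 and without NC_1 2474. This test compares these libraries, not cultures. Among protein-coding genes the share rose with depth, from 18.7% at mean counts of 20 to 100 to 90.1% at 10000 or more, while the median coefficient of variation fell from 18.5% to 4.36%.

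By function, beside the 35.2% of all genes, 27 of 35 tested antioxidant genes, 25 of 39 cell division genes, 69 of 76 ribosomal protein genes and 18 of 24 mitochondrially encoded genes differed, against 13 of 45 G protein-coupled receptors and 2 of 15 Wnt, Notch and Hedgehog receptors. Since the share called rose with depth, the share is not comparable between lists of different abundance. Of 8916 protein-coding genes with a mean count of at least 100, 398 had a highest library more than 1.5 times the lowest in CPM, the count scaled to the library total, and 22 more than 2 times. In those 398 the lowest library was NC_3 in 285 cases and the highest NC_1 in 232.

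Cell division genes were set beside all protein-coding genes by the same measure. Of 39 tested members 23 were highest in NC_1 and 21 lowest in NC_3, against 37.0% highest in NC_1 and 44.2% lowest in NC_3 of 11406 protein-coding genes; the difference was not tested. The median ratio of NC_3 to NC_1 was 0.926 over the list and 0.973 over those genes. CDK1, the mitotic kinase, had 48.1, 35.1 and 23.2 CPM, the largest coefficient of variation of the expressed members. HMMR, a mitotic spindle protein that is not on the list and was named for its spread, had 19.3, 13 and 8.55 CPM. In the opposite direction ABCA1, a cholesterol exporter, had 6.02, 6.1 and 11.4 CPM and MYO7A, a motor of RPE melanosomes and phagosomes, 22.2, 22.5 and 40.3 CPM. Of the 24 tested mitochondrially encoded genes 17 were highest in NC_3. NC_1 also had the highest total count and NC_3 the highest mitochondrial share, and the part of either in this order was not tested.

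The gene with the largest spread was EIF3CL, with 7.09, 35.1 and 6.99 CPM, and its near-identical copy EIF3C, a subunit of translation initiation factor eIF3, had 42.8, 22.1 and 59.1 CPM. NC_2 was high for one and low for the other. Their sums were 49.9, 57.2 and 66.1 CPM, a narrower range than either gene alone, so the separate values are uncertain. CBS, which makes cystathionine from homocysteine, came next with 11.6, 28.1 and 35.4 CPM, lowest in NC_1. It has a near-identical copy, CBSL, in hg38, so how reads were split between the copies is uncertain. PPIP5K2, TOX2, LARP7 and TENT4B were also among the 10 genes of largest spread.

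**Figure D5:**
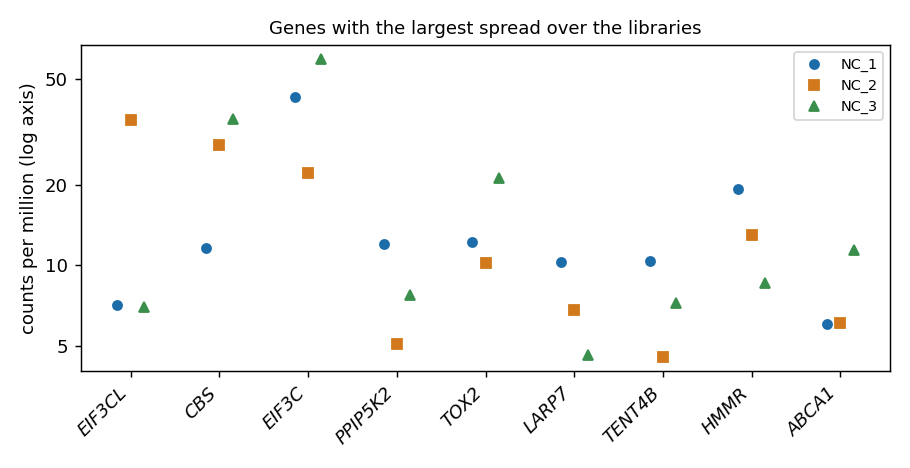
CPM on a log axis, for 9 of the 10 protein-coding genes of largest coefficient of variation over the 3 libraries among those with a mean count of at least 100. NC_2 stands apart for EIF3CL (35.1 CPM against 7.09 and 6.99), while LARP7 and HMMR are highest in NC_1 and lowest in NC_3.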

How the data were processed

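Total RNA of control ARPE-19 cells was read as messenger RNA sequencing libraries made with a SMARTER kit, per the labels' protocols, which name either of 2 extraction reagents without assigning them. Whole-number counts per gene and FPKM values were used as deposited by the authors, on hg38 per the submitters' processing notes. The read aligner, the counter and the strand setting used: not given in the sources used here. The FPKM deposited by the authors equal the counts over length with a single scale per library, 1.03, 1.05 and 1.01 times its total. Gene length matched the exon union in GENCODE 29 for 58735 of 58735 genes, so long unused exons lower a gene's FPKM.

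Groups came from the sample labels. No comparison between groups was made, and the 3 overexpressing libraries were left out. Counts were tested for equal shares over the libraries (chi-square, 2 degrees of freedom, mean count of at least 20, Benjamini-Hochberg) with SciPy 1.17.1, after a check on simulated data. edgeR 4.0.16 gave the biological coefficient of variation. Exon sharing was computed from GENCODE 29 with both strands pooled, and motifs from RefSeq windows. Counting precision follows the depth: 13616694 to 16934668 counts per library.

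Named genes were the 12 highest nuclear genes, up to 4 leading members and set defining members of each list, the 10 most variable and the 8 highest on no list. Further list members (such as TAGLN, B2M, COL5A1 and MIF), MYO7A and CDK1 were named after their values were seen. Some genes that this rule names are not reported here. The members and lists were chosen with earlier results of these data known. Alternatives covered the threshold, unit, gene length, scaling, filters and each library left out.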

Additional observations from a re-analysis of the deposited data

How the results depend on the processing

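The number of expressed protein-coding genes stayed within 1.5 times of 8889 under every alternative run, from 7300 at 2 FPKM to 11379 at 1 CPM. It was 8976 to 9035 with 1 library left out. The members expressed over all lists stayed between 434 and 629, against 512. Of 32 lists, 4 moved by more than 1.5 times at 1 CPM, 3 at 1 TPM, 2 at 2 FPKM and 1 at 0.5 FPKM. Toll-like and chemokine receptors went from 1 to 2 without NC_1 and to 4 at 1 CPM, visual cycle genes from 5 to 3 and Wnt, Notch and Hedgehog receptors from 13 to 8 at 2 FPKM, and at 1 TPM G protein-coupled receptors from 28 to 43 and cytokines and chemokines from 12 to 20. At 1 CPM, cytokine receptors went from 14 to 22 and TGF-beta and BMP receptors from 6 to 10. Leaving out a library moved none of the 163 named genes with counts by more than 1 SD, which a mean of 3 cannot do by construction. Scaling by TMM or RLE gave 4266 and 4254 genes differing beyond counting error, against 4365. Without 1 library that number ran from 1757 (without NC_3) to 3487 (without NC_2), with 2474 without NC_1, on 1 degree of freedom instead of 2. The biological coefficient of variation ran from 6.62% (without NC_3) to 10.4% (without NC_2). Of the 12 most abundant nuclear genes, 12 were shared with a ranking by TPM, 8 with one by CPM, which ignores length, and 11 when the longest protein-coding transcript replaced the exon union. This last length, and a restriction to genes with at most 50% of exon bases shared (8779 expressed), were chosen after seeing the data. With the longest transcript 9547 genes were expressed. No paired analysis was possible because no comparison between groups was made.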
